A study of Homo sapiens with 4 samples.

Results

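The centromere, kinetochore and spindle checkpoint genes form a set of 45 listed symbols, and all 45 were found by gene name among the 20263 Ensembl gene IDs of the deposited count table. They were measured by RNA sequencing in MDA-MB-231, a long-established line grown from human triple-negative breast cancer cells. One group had been treated for 24 h with RB-1, named in the series title as a ribociclib derivative, ribociclib being an inhibitor of the kinases CDK4 and CDK6. The other group received the solvent DMSO. Each group had 2 mRNA libraries made from total RNA. The dose of RB-1 is not in the labels. Nor do they state that replicates were grown apart, so p-values here speak only of the spread among these libraries, part or all of which may be technical.

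The centromere is the chromatin at which the spindle takes hold of a chromosome in mitosis, and it is marked by nucleosomes with the histone H3 variant CENPA. On it sits the constitutive centromere-associated network (CCAN), the inner kinetochore, which recruits the KMN network of KNL1, the MIS12 complex and the NDC80 complex, the part that grips microtubules. Unattached kinetochores build an outer fibrous corona and send out the spindle checkpoint signal of the MAD and BUB proteins, which holds back anaphase. Many of these genes are transcribed late in the cell cycle, and many such promoters carry a CHR element, which the DREAM and MuvB complexes bind. In bulk RNA, fewer cells in a cycle stage and less RNA per cell cannot be told apart.

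Library totals lay between 34122874 and 37754168 counts. Transcripts of mitochondrial DNA took 4.25% and 6.46% of the counts in the RB-1 libraries, and 8.68% and 21.7% in the DMSO libraries. Leaving those genes out kept the same counts of 5 higher and 13 lower among the 45 genes. Why the shares differ between libraries was not tested. Of the markers of this line, VIM was at 4970 to 5420 CPM in RB-1 and 3560 to 4240 CPM in DMSO, while CDH1 was at or under 0.0573 CPM and ESR1 at or under 0.659 CPM in all 4 libraries. EPCAM, listed as a low marker, was present at 9.46 to 13.5 CPM. Among markers of other cell types, CD3E had no counts, PTPRC, ALB and PECAM1 stayed at or under 1.18 CPM, and COL1A1 ran from 4.73 to 8.09 CPM.

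After RB-1 the kinetochore genes split, with more genes lower than higher. Of the 45 genes, all of which passed the count filter, 13 fell, 5 rose and 27 did not pass the test (edgeR quasi-likelihood test with Benjamini-Hochberg adjustment over all genes, adjusted p under 0.05). The falls were CENPE, CENPF, KNTC1 and ZW10 of the corona, the checkpoint kinase genes BUB1, BUB1B and TTK, NDC80, NUF2 and KNL1 of the KMN network, SKA3, and CENPC and CENPU of the inner kinetochore. The rises were CENPA, CENPH, CENPW, SPC25 and MAD2L1. The share that fell was 28.9%, beside 15.8% of all 13612 genes tested, and the share that rose was 11.1%, beside 12.5% of all, a share near the background. Taken in either direction, 18 of the 45 genes passed, beside 28.3% of all. Scaling by library totals alone kept 13 falls and gave 6 rises, and by upper-quartile factors 13 and 7, while over all genes it turned 1702 higher and 2149 lower into 2015 and 1381, and into 2134 and 1815.

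The median log2 fold change of RB-1 over DMSO was -0.01 over the 45 genes and 0.01 over all tested genes, with single genes from -3.55 (CENPF) to 1.88 (CENPH). The change was at least 2-fold for 16 of the 18 called genes, CENPA and SPC25 being the exceptions. The same share over all called genes was not computed, so this describes these genes alone. Both RB-1 libraries lay below both DMSO libraries for 19 of the 45 genes (34.3% of all tested genes were so placed) and above them for 14 (35.3% of all), and the groups overlapped for 12. The share without overlap was 73.3%, beside 69.7% of all tested genes. With 1 library left out, changes here and below are given by log2 fold change alone, since a group of 1 library has no spread. In the order CENPA, CENPH, CENPW, SPC25 and MAD2L1, the fit on all libraries gave 0.97, 1.88, 1.46, 0.8 and 1. Without DMSO replicate 1 they were at 1.17, 1.87, 1.6, 0.84 and 1.05. Without DMSO replicate 2 they were at 0.82, 1.91, 1.36, 0.78 and 0.97. Every rise became smaller without RB-1 replicate 1 (0.59, 1.54, 1.08, 0.66 and 0.9). Each became larger without RB-1 replicate 2 (1.28, 2.16, 1.77, 0.94 and 1.1). The falls kept their sign in each of these fits. Under the alternatives run for single genes that kept all libraries, every fall passed, and so did the rises of CENPH, CENPW and MAD2L1. CENPA and SPC25 did not pass under some of them.

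**Figure D1:**
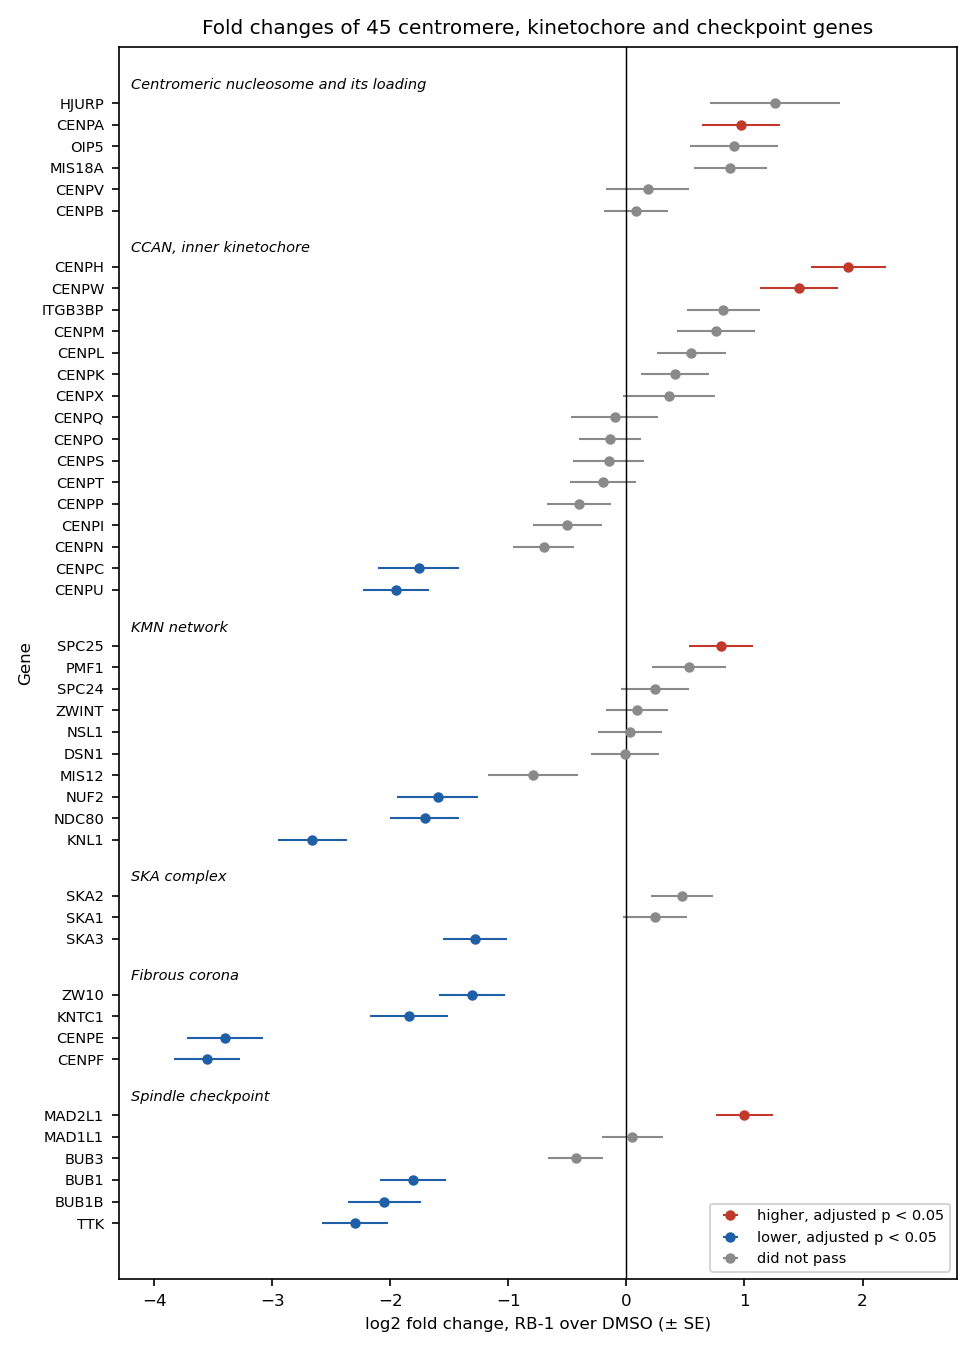
Log2 fold change of RB-1 over DMSO (horizontal axis, points with standard errors) for the 45 genes (vertical axis), grouped by role and coloured by the edgeR call at an adjusted p of 0.05. The 4 corona genes all lie to the left of 0, while the genes of centromeric chromatin lie to its right.

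The promoters shown here, of some genes that rose and some that fell, were picked because they hold a CHR word near the transcription start. They do not stand for all called genes, and genes that did not pass can hold the word there too. RefSeq promoter windows (GRCh38.p14, 250 bases before to 50 bases after the start, the first start listed per gene) were read for 37 of the 45 genes, not for CENPM, BUB3, MIS18A, KNTC1, TTK, CENPH, KNL1 and CENPL. The CCAAT box was searched as these letters, the CHR as TTTGAA and the palindromic variant TTCGAA, and an E2F site as TTTGGCGC, TTTGCCGC, TTTCGCGC or TTTCCCGC, on both strands, and no word of one motif holds a word of another. A CHR word was present in 18 of the 37 windows (48.6%), beside 16.6% of 27305 promoters of the same length. It was present in 4 of 4 windows of genes that rose, 8 of 10 of genes that fell and 6 of 23 of genes that did not pass. Within 50 bases of the start it was found in 4 of 4, 6 of 10 and 5 of 23 of them, beside 5.05% of all promoters. A CCAAT box was present in 20 of 37 windows (54.1%, beside 35.7% of all) and an E2F word in 5 of 37 (13.5%, beside 3.33% of all). In the windows below, read along the gene's strand with the start at base 251, capitals mark these words. The first group rose and the second group fell.
CENPA (chr2:26785806-26786105, GRCh38.p14, plus strand): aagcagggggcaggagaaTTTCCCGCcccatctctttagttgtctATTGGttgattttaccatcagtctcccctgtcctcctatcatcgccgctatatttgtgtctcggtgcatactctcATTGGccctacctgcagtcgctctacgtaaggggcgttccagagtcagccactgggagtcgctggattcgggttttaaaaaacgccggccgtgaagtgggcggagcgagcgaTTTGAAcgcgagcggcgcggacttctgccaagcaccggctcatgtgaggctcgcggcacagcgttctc
SPC25 (chr2:168890381-168890680, GRCh38.p14, minus strand): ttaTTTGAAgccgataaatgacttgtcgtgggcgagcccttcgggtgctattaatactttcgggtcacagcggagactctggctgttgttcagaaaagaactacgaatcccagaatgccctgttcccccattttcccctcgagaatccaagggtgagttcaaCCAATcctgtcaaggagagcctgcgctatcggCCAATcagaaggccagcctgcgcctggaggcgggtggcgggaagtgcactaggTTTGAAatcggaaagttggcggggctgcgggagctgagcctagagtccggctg
MAD2L1 (chr4:120066799-120067098, GRCh38.p14, minus strand): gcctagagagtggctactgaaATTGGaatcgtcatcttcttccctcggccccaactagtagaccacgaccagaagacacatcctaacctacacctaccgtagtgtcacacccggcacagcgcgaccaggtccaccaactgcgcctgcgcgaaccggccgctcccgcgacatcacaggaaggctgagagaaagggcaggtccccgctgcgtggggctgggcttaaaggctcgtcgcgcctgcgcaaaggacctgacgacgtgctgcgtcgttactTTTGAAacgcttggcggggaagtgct
CENPF (chr1:214602945-214603244, GRCh38.p14, plus strand): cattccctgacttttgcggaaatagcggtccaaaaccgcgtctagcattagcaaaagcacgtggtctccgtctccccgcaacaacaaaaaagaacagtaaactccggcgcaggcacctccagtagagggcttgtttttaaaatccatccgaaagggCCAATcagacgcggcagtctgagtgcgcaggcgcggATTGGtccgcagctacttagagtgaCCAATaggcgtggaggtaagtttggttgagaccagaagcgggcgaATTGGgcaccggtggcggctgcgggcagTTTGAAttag
NDC80 (chr18:2571307-2571606, GRCh38.p14, plus strand): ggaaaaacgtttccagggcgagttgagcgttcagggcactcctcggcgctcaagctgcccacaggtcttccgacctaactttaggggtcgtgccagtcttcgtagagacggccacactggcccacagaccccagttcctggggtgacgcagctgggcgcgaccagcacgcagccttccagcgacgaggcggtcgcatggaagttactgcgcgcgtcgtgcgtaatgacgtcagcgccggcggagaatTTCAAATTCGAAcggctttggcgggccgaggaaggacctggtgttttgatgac
BUB1 (chr2:110678014-110678313, GRCh38.p14, minus strand): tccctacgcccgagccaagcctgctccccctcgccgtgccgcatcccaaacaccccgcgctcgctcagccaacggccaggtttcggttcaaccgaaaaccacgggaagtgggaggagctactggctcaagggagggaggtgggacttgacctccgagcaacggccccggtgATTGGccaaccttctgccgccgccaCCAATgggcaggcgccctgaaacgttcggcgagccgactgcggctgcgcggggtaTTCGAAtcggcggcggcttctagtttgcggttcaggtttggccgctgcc
The CHR word of CENPA begins at base 233 of its window, that of SPC25 nearest the start at base 248 and that of MAD2L1 at base 275. Among the genes that fell, it begins at base 291 for CENPF, at bases 248 and 254 for NDC80 and at base 252 for BUB1. CENPE, which fell most after CENPF, had none of the 3 motifs in its window. A match is a description of these letters and says nothing of binding.

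Among the genes of centromeric chromatin, CENPA was the 1 that passed the test. Of 6 genes, 1 was called higher (16.7%, beside 12.5% of all tested genes) and 0 lower (beside 15.8% of all). Both RB-1 libraries lay above both DMSO libraries for 3 and the groups overlapped for 3. The share without overlap was 50%, beside 69.7% of all. The median log2 fold change was 0.89 (each ± beside a log2 fold change is a standard error). CENPA, the histone variant itself, had 36.9 and 22.8 CPM, the normalised expression unit used throughout, in the RB-1 libraries, against 17.1 and 13.3 CPM in the DMSO libraries. Its groups did not overlap, and it rose 1.96-fold (log2 fold change 0.97 ± 0.33 SE, adjusted p = 0.0484), just inside the threshold. Without DMSO replicate 1 it was at 1.17, without DMSO replicate 2 at 0.82 and without RB-1 replicate 1 at 0.59. It did not pass with limma-voom (0.94, adjusted p = 0.0648) or with a correction for length and GC (0.63, 0.0941). About 6.96% of its exon bases are shared with SLC35F6 on the same strand, whose own log2 fold change was 0.00.

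HJURP, the chaperone that deposits CENPA, had 149 and 45 CPM in RB-1, against 45.7 and 35.1 CPM in DMSO. One RB-1 library stood far above the other 3 and the second overlapped with DMSO, so its log2 fold change of 1.26 ± 0.55 did not pass (adjusted p = 0.136). Its value rested on RB-1 replicate 1: without that library it was at 0.16, and without RB-1 replicate 2 at 1.88. It passed with DESeq2 (1.25, 0.0212). MIS18A, of the complex that licenses CENPA loading, had both RB-1 libraries above DMSO (29.9 and 19.9 against 13.9 and 13.2 CPM; 0.88 ± 0.31, adjusted p = 0.0572). It was at 0.56 without RB-1 replicate 1 and at 1.14 without RB-1 replicate 2. It passed with upper-quartile factors (0.98, adjusted p = 0.0357), library totals alone (1.06, 0.0448), DESeq2 (0.87, 0.0335) and the length and GC correction (0.80, 0.0456). OIP5, its partner in that complex, was at 0.91 ± 0.37 (adjusted p = 0.0897). It was at 1.31 without RB-1 replicate 2 and at 0.36 without RB-1 replicate 1. OIP5 is uncertain, since 38% of its exon bases overlap OIP5-AS1 on the opposite strand, and no source used here states whether counting was stranded. CENPB, which binds a motif in satellite DNA, and CENPV, which has 8.96% of its exon bases over PIGL on the opposite strand, were at 0.08 ± 0.27 and 0.18 ± 0.35, with overlapping groups.

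Calls in the inner kinetochore went in both directions, at shares near the background. Of 16 CCAN genes, 2 fell (12.5%, beside 15.8% of all tested genes), 2 rose (12.5%, beside 12.5% of all) and 12 did not pass. Their median log2 fold change was -0.12. CENPC, which bridges the CENPA nucleosome to the outer kinetochore, had 8.03 and 13.1 CPM in RB-1, against 41.0 and 30.3 CPM in DMSO. It was 3.38-fold lower (-1.76 ± 0.34, adjusted p = 0.00489), with both RB-1 libraries below both DMSO libraries. CENPU, of the CENPO-P-Q-U-R module, had 19.1 and 21.9 CPM in RB-1, against 88.7 and 70.0 CPM in DMSO. It was 3.87-fold lower (-1.95 ± 0.28, adjusted p = 0.00127), and 11.7% of its exon bases overlap PRIMPOL on the opposite strand, itself at 0.01.

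The 2 rises belong to other modules. CENPH, of the CENPH-I-K-M module, had 35.7 and 23.1 CPM in RB-1, against 7.94 and 8.03 CPM in DMSO. Its 3.68-fold rise was the largest of the 45 genes (1.88 ± 0.32, adjusted p = 0.00296). CENPW, a histone-fold protein that pairs with CENPT, had 38 and 23.5 CPM in RB-1, against 12.2 and 10.2 CPM in DMSO. It rose 2.75-fold (1.46 ± 0.33, adjusted p = 0.00953), and was at 1.6 without DMSO replicate 1 and 1.36 without DMSO replicate 2. Its partner CENPT, which anchors the NDC80 complex, had 24.7 and 27.7 CPM in RB-1, against 30.9 and 29.3 CPM in DMSO. That difference did not pass (-0.20 ± 0.28, adjusted p = 0.618), and 10.8% of the exon bases of CENPT overlap TSNAXIP1 on the opposite strand, itself at 1.62 (adjusted p = 0.0587).

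No other CCAN gene passed. Within the CENPH-I-K-M module CENPM was at 0.76 ± 0.33 (adjusted p = 0.107) and CENPK at 0.41 ± 0.29, both with the RB-1 libraries above DMSO, while CENPI was at -0.50 ± 0.29 with both below. CENPL and CENPN, a pair of which CENPN reads the CENPA nucleosome, lay on opposite sides, at 0.55 ± 0.29 and -0.70 ± 0.26. CENPN (adjusted p = 0.0699) passed with DESeq2 (-0.71, 0.0353) and with the length and GC correction (-0.76, 0.0187), and 12.8% of its exon bases overlap CMC2 on the opposite strand. ITGB3BP, the gene of CENP-R, was at 0.82 ± 0.31 (adjusted p = 0.0715) and passed with upper-quartile factors (0.93, 0.0427) and DESeq2 (0.81, 0.0484). CENPP (-0.40), CENPO (-0.14), CENPQ (-0.10), CENPS (-0.15) and CENPX (0.36), of which CENPS and CENPX are histone-fold partners of CENPT and CENPW and the others belong to the CENPU module, had adjusted p-values from 0.288 to 0.861. Of these, CENPS shares 64.7% of its exon bases with the read-through gene CENPS-CORT, and CENPP and CENPO share 38% and 27% with IPPK and ADCY3 on the opposite strand, so their counts are uncertain.

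In the KMN network the large scaffold and the microtubule end of the NDC80 rod fell. Of 10 genes, 3 fell (30%, beside 15.8% of all tested genes), 1 rose (10%, beside 12.5% of all) and 6 did not pass. The median log2 fold change was 0.01. KNL1, the scaffold on which the checkpoint proteins gather, had 14.5 and 14.0 CPM in RB-1, against 101 and 79.4 CPM in DMSO. It was 6.31-fold lower (-2.66 ± 0.29, adjusted p = 0.000339). ZWINT, its binding partner, had overlapping groups (180 and 122 against 152 and 132 CPM; 0.09 ± 0.26, adjusted p = 0.816).

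NDC80, which carries the microtubule-binding head, had 21.6 and 23.4 CPM in RB-1, against 83.9 and 63.3 CPM in DMSO. NUF2, paired with NDC80 along the rod, had 11.9 and 20.5 CPM in RB-1, against 55.5 and 43.0 CPM in DMSO. Both groups were apart in each case, with NDC80 3.27-fold lower (-1.71 ± 0.29, adjusted p = 0.00249) and NUF2 3.04-fold lower (-1.60 ± 0.34, adjusted p = 0.00703). Without DMSO replicate 1, NUF2 was at -1.41. At the other end of the rod, SPC25 had 61.8 and 50.7 CPM in RB-1, against 33.1 and 31.3 CPM in DMSO. It rose 1.74-fold (0.80 ± 0.27, adjusted p = 0.0496), at the edge of the threshold, and did not pass when DMSO replicate 1 (0.84, 0.205), the second DMSO library (0.78, 0.259) or RB-1 replicate 1 (0.66, 0.137) was left out, nor with limma-voom (0.80, 0.0526). SPC24, its partner, was at 0.24 ± 0.29 with overlapping groups.

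None of the 4 genes of the MIS12 complex, which joins the CCAN to the NDC80 complex, passed. MIS12 had 39.9 and 19.1 CPM in RB-1, against 61.1 and 40.9 CPM in DMSO. Both RB-1 libraries were lower but far apart (-0.79 ± 0.38, adjusted p = 0.144). MIS12 was at -1.41 without RB-1 replicate 1, at -0.35 without RB-1 replicate 2 and at -0.47 without DMSO replicate 1. About 9.53% of its exon bases overlap DERL2 on the opposite strand. DSN1 (-0.01 ± 0.29), NSL1 (0.03 ± 0.27) and PMF1 (0.53 ± 0.31) had adjusted p-values from 0.212 to 0.986, and PMF1 shares 23.3% of its exon bases with the read-through gene PMF1-BGLAP.

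The SKA complex, which tracks microtubule ends, had 1 fall among 3 genes (33.3%, beside 15.8% of all tested genes). SKA3 had 30.9 and 40.8 CPM in RB-1, against 88.3 and 86.2 CPM in DMSO. It was 2.44-fold lower (-1.28 ± 0.27, adjusted p = 0.0073), and was at -1.27 without DMSO replicate 1 and -1.28 without DMSO replicate 2. SKA1 had 44.1 and 39.8 CPM in RB-1, against 32.9 and 38 CPM in DMSO. Its groups did not overlap but lay close (0.24 ± 0.27, adjusted p = 0.533), and SKA2 was likewise above DMSO without passing (0.47 ± 0.26, adjusted p = 0.194).

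All 4 listed genes of the fibrous corona fell (100%, beside 15.8% of all tested genes), with a median log2 fold change of -2.62. CENPF, a large coiled-coil protein of the corona, had 45 and 48.3 CPM in RB-1, against 663 and 434 CPM in DMSO. CENPE, the kinesin that carries chromosomes to the spindle equator, had 11.2 and 16.3 CPM in RB-1, against 169 and 122 CPM in DMSO. These were the deepest falls of the 45 genes, CENPF 11.8-fold (-3.55 ± 0.28, adjusted p = 9.53e-05) and CENPE 10.6-fold (-3.40 ± 0.32, adjusted p = 0.000176). KNTC1, the ROD subunit of the RZZ complex that brings dynein and MAD proteins to kinetochores, had 28.4 and 49.0 CPM in RB-1, against 168 and 109 CPM in DMSO. It was 3.58-fold lower (-1.84 ± 0.33, adjusted p = 0.0042). ZW10, its partner in the RZZ complex, was 2.48-fold lower (-1.31 ± 0.28, adjusted p = 0.00783). It was at -1.22 without DMSO replicate 1 and -1.37 without DMSO replicate 2. ZWILCH, the remaining RZZ subunit, which is not among the 45 genes, had overlapping groups and did not pass, with 10.3 and 25.5 CPM in RB-1, against 32.4 and 21.5 CPM in DMSO (-0.59 ± 0.43, adjusted p = 0.323).

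**Figure D2:**
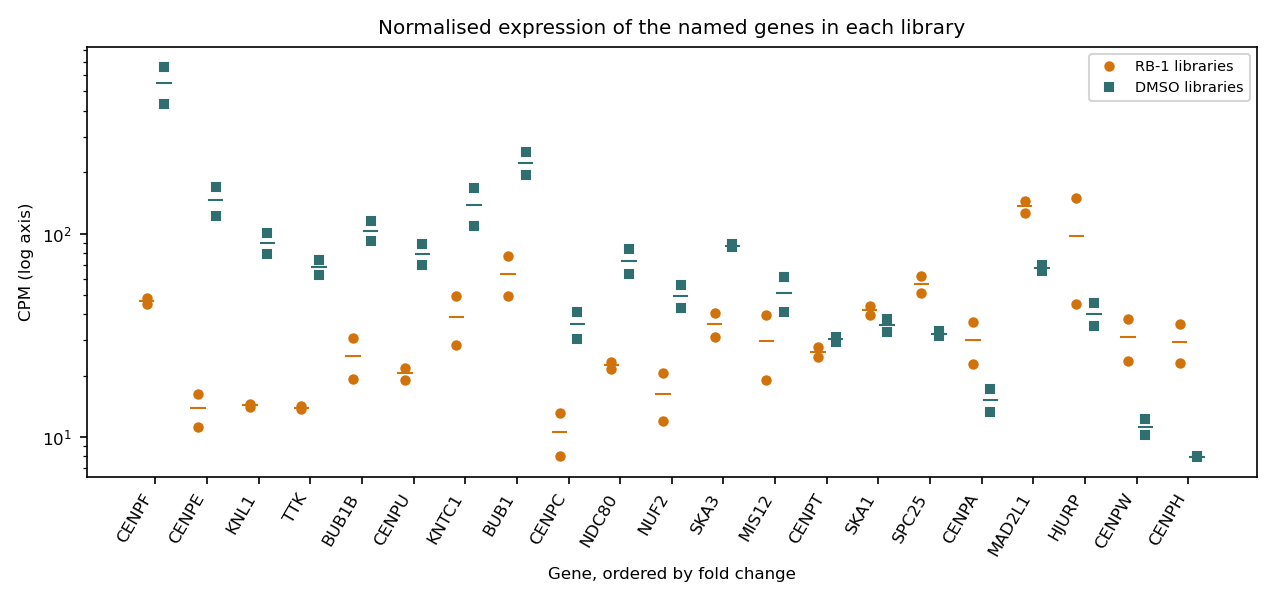
Normalised expression in CPM (log axis) of 21 genes in each library, RB-1 libraries as circles and DMSO libraries as squares, with the group mean as a short line, ordered by fold change. CENPF and CENPE show the widest gaps, and the RB-1 libraries of HJURP lie far apart at 149 and 45 CPM.

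Checkpoint genes also split, with the 3 kinase genes lower and MAD2L1 higher. Of 6 genes, 3 fell (50%, beside 15.8% of all tested genes), 1 rose (16.7%, beside 12.5% of all) and 2 did not pass. The median log2 fold change was -1.12. TTK, the gene of the kinase MPS1 that starts checkpoint signalling, had 14.1 and 13.7 CPM in RB-1, against 74.2 and 62.7 CPM in DMSO. BUB1, a kinase that docks on KNL1, had 49.5 and 77.1 CPM in RB-1, against 251 and 193 CPM in DMSO. BUB1B, the gene of BUBR1 in the mitotic checkpoint complex, had 19.2 and 30.6 CPM in RB-1, against 115 and 92.1 CPM in DMSO. All 3 were lower in both RB-1 libraries, TTK 4.92-fold (-2.30 ± 0.28, adjusted p = 0.000603), BUB1 3.51-fold (-1.81 ± 0.28, adjusted p = 0.00191) and BUB1B 4.15-fold (-2.05 ± 0.31, adjusted p = 0.00154). About 10.2% of the exon bases of BUB1B are shared with the read-through gene BUB1B-PAK6.

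MAD2L1, the gene of MAD2, which closes around CDC20 to hold back anaphase, had 145 and 126 CPM in RB-1, against 70.1 and 65.4 CPM in DMSO. It rose 2-fold with groups well apart (1 ± 0.24, adjusted p = 0.0123), and was at 1.05 without DMSO replicate 1 and 0.97 without DMSO replicate 2. MAD1L1, the gene of the protein that holds MAD2 at kinetochores, had overlapping groups (99.9 and 77.9 against 77.6 and 93.8 CPM; 0.05 ± 0.26, adjusted p = 0.895). BUB3, the adaptor that carries both BUB kinases to KNL1, had 216 and 228 CPM in RB-1, against 338 and 259 CPM in DMSO, a difference that did not pass (-0.43 ± 0.23, adjusted p = 0.193).

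Some partner genes had like log2 fold changes, such as NDC80 and NUF2 (-1.71 and -1.60), CENPF and CENPE (-3.55 and -3.40) and DSN1 and NSL1 (-0.01 and 0.03), and others had unlike ones. For 10 pairs, most of them picked as unlike, the count ratio of the 2 genes within a library is given here, which needs no library scaling. The ratio does not remove the trend with transcript length described below, and paired genes can differ in length. CENPC has 6940 bases and CENPA 1452, and with the length and GC correction they were at -0.95 and 0.63, against -1.76 and 0.97 without it. The pairs were chosen after the values were seen, so they describe these genes and not partners in general, and they carry no test, since 2 libraries against 2 cannot give an exact permutation p under 0.333. The log2 ratio of NDC80 over SPC25 was -1.52 and -1.11 in the RB-1 libraries, against 1.34 and 1.01 in the DMSO libraries. BUB1B over MAD2L1 was -2.92 and -2.04 in RB-1, against 0.71 and 0.49 in DMSO. In these pairs the order of the 2 genes by counts was opposite in the 2 groups. CENPC over CENPA was -2.20 and -0.80 in RB-1, against 1.26 and 1.19 in DMSO. CENPU over CENPH, a pair from different CCAN modules, was -0.90 and -0.08 in RB-1, against 3.48 and 3.12 in DMSO. It had the widest shift of the 10 pairs (-3.79), and it joins a gene that fell to the gene that rose most. HJURP over CENPA, at 2.01 and 0.98 in RB-1 and 1.41 and 1.40 in DMSO, was the pair of the 10 whose groups overlapped.

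**Figure D3:**
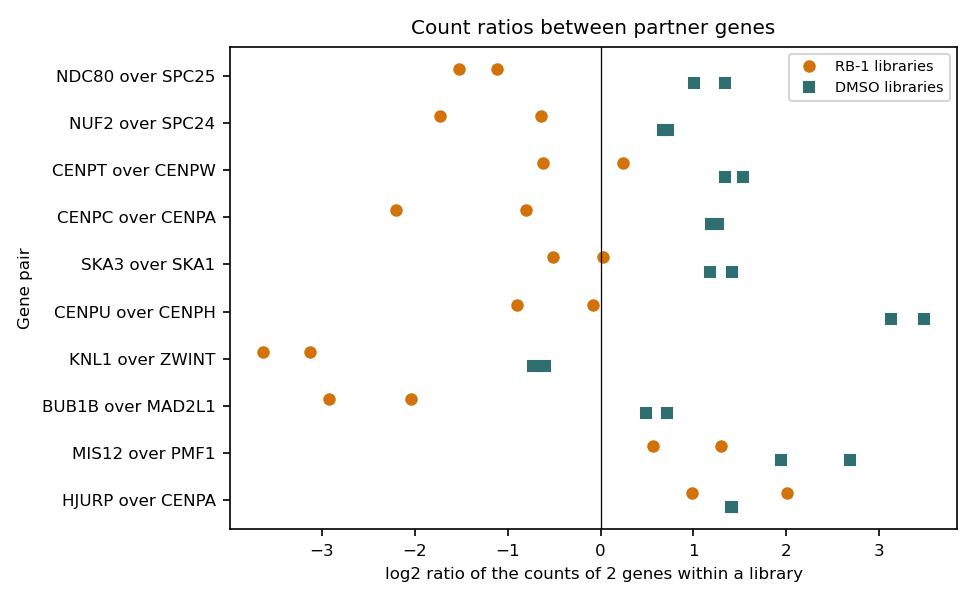
Log2 ratio of the counts of 2 genes within a library (horizontal axis) for 10 gene pairs (vertical axis), RB-1 libraries as circles and DMSO libraries as squares. In 9 pairs, each written with the gene of lower log2 fold change first, the RB-1 libraries lie to the left of the DMSO libraries. For HJURP over CENPA they lie on both sides of them.

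The direction went with the length of the transcript. Length was taken as the median over the principal transcripts of a gene in GENCODE 29. Among 19 genes under 2000 bases, 4 rose and 2 fell. Among 13 of 2000 to under 3000 bases, 0 rose and 3 fell, namely NDC80 (2172 bases), SKA3 (2919) and ZW10 (2992). Among 13 of at least 3000 bases, 1 rose and 8 fell. Against the direction of the shortest and longest ranges, MAD2L1 rose with a principal transcript of 5468 bases. CENPU and NUF2 fell with 1998 and 1906 bases. The Spearman correlation of log2 fold change with length was -0.64 over the 45 genes and -0.38 over 13596 tested genes with a length, given as a description, since genes share the libraries. Within RB-1, the difference of replicate 1 minus replicate 2 also ran with length (Spearman correlation -0.35 over the 45 genes and -0.42 over all). Within DMSO the same correlation was 0.07 over the 45 genes and 0.10 over all. After the length and GC correction given next, the correlation of log2 fold change with length over the 45 genes was -0.40.

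The shares were also set beside genes of like length. In the shortest quartile of tested genes, up to 1911 bases, both shares were near the background: 1 of 17 kinetochore genes fell (5.88%, beside 5.23% of all), namely NUF2, and 23.5% rose, beside 23.3% of all genes there. In the second quartile 21.4% of 14 fell, beside 10% of all. In the third quartile 66.7% of 6 fell, beside 17% of all, and in the longest quartile, from 4646 bases, 62.5% of 8 fell, beside 31% of all. These shares are descriptions of small numbers of genes.

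**Figure D4:**
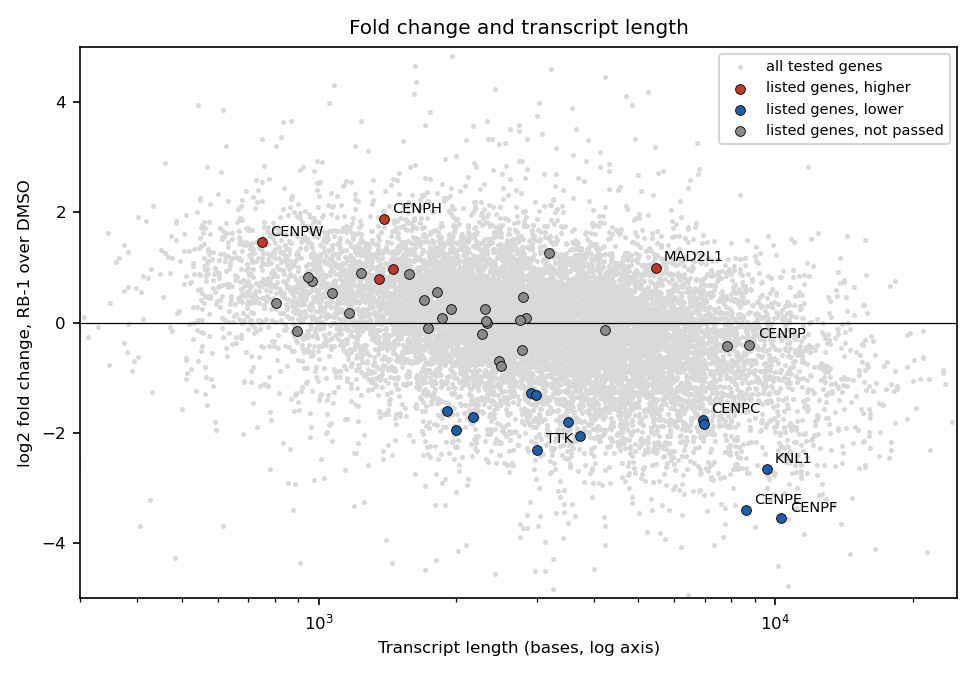
Log2 fold change of RB-1 over DMSO (vertical axis) against transcript length in bases (log axis) for all tested genes in light grey and the 45 kinetochore genes in colour by call; 84 of 13596 genes lie outside the axes. The longest of the genes that fell, CENPF, CENPE and KNL1, lie lowest among the coloured points, and MAD2L1 stands apart as a long gene that rose.

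With offsets that correct each library for length and GC content, 14 of the 45 genes were lower and 5 higher, beside 15.5% and 16.4% of all genes. All 13 falls remained, joined by CENPN, and 4 of the 5 rises remained, with MIS18A in and CENPA out. The falls of long genes became smaller, with CENPF at -2.43, CENPE at -2.62, KNL1 at -1.59, KNTC1 at -1 and CENPC at -0.95 on the log2 scale. The adjusted p-values of these 5 lay between 0.000861 and 0.0113. MAD2L1 was at 1.76 (adjusted p = 0.00423) and BUB3, which passed in neither fit, at 0.52 (adjusted p = 0.0942), with its sign turned.

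**Figure D5:**
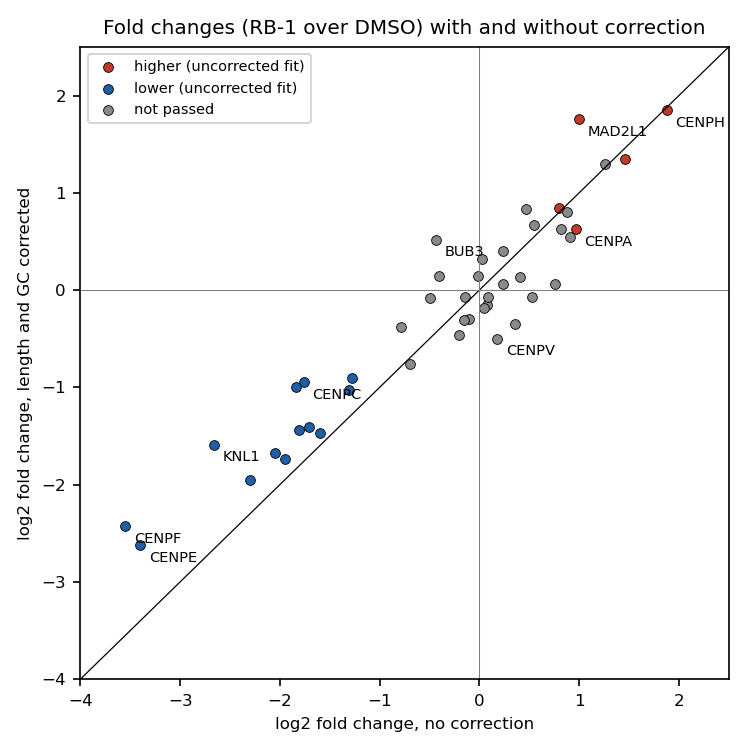
Log2 fold change of RB-1 over DMSO for the 45 genes without correction (horizontal axis) and with correction for transcript length and GC content (vertical axis), with the line of equal values and colours by the uncorrected call. The blue points of genes that fell stay below 0 but lie above the line, CENPF at -2.43 corrected and -3.55 uncorrected.

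Per kilobase of transcript, the levels of the 45 genes in RB-1 ran from 1.49 (KNL1) to 81.2 CPM per kb (ZWINT), with a median of 14.9, and in DMSO from 4.02 (CENPP) to 76.2 CPM per kb (ZWINT), with a median of 17.7. ZWINT (96.6 and 65.7 in RB-1, against 81.7 and 70.7 in DMSO) and CENPB (93.3 and 66.0 against 60.7 and 90.5) held the first 2 ranks in both groups, and did not differ beyond their spread. CENPF had 4.37 and 4.69 CPM per kb in RB-1, against 64.3 and 42.1 in DMSO, which placed it at rank 41 in RB-1 and rank 4 in DMSO. CENPW stood at rank 4 in RB-1 and rank 27 in DMSO, and CENPH at rank 15 and rank 43. Dividing by length does not remove the trend of fold change with length described above, so shifts of rank between the groups carry it. CENPC, at rank 44 in both groups, had 1.16 and 1.88 CPM per kb in RB-1, against 5.91 and 4.37 in DMSO.

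Replicates of the 45 genes differed by a median of 0.32 on the log2 scale in both groups. Within RB-1, 27 of the 45 genes were higher in replicate 1 than in replicate 2, and the widest gap was that of HJURP (1.72). Within DMSO, 36 of the 45 were higher in replicate 1, and the widest gap was that of CENPX (1.22).

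Other proteins that work at the kinetochore were taken from a separate list of 27 genes. Of these, 14 fell (51.9%, beside 15.8% of all tested genes), 1 rose (3.7%, beside 12.5% of all) and 12 did not pass, with a median log2 fold change of -0.73. CKAP5, the microtubule polymerase chTOG, had 58.8 and 62.4 CPM in RB-1, against 428 and 353 CPM in DMSO. RANBP2, a nuclear pore protein that moves to kinetochores in mitosis, had 23.4 and 23.8 CPM in RB-1, against 186 and 128 CPM in DMSO. CLIP1, the plus-end protein CLIP-170, had 36.5 and 49.6 CPM in RB-1, against 211 and 183 CPM in DMSO. The RB-1 libraries were far below DMSO in each, with CKAP5 6.45-fold lower (-2.69 ± 0.24, adjusted p = 0.000158), RANBP2 6.64-fold lower (-2.73 ± 0.28, adjusted p = 0.000298) and CLIP1 4.58-fold lower (-2.19 ± 0.26, adjusted p = 0.000507). Their transcripts are long (7121, 11711 and 5856 bases). With the length and GC correction the falls were smaller, at -1.97, -1.52 and -1.57 in the same order, and still passed. Of the 14 falls, 13 still passed with it, while DYNC1H1 (20003 bases) went from -1.06 to -0.07 and did not pass. The shares of this list were not set beside genes of like length. MAD2L1BP, the gene of the protein that opens MAD2 to end the checkpoint signal, had 55.5 and 37.3 CPM in RB-1, against 22.5 and 21.0 CPM in DMSO. It was the 1 that rose (1.09 ± 0.30, adjusted p = 0.022), and did not pass when DMSO replicate 1 (1.14, 0.116), the second DMSO library (1.06, 0.162) or RB-1 replicate 1 (0.78, 0.0939) was left out, nor with the length and GC correction (0.63, 0.0504). The falls of this list numbered 9 without DMSO replicate 1 and 9 without DMSO replicate 2.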

How the data were processed

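RNA from 4 libraries of MDA-MB-231 cells, 2 with RB-1 and 2 with DMSO, was sequenced after mRNA library preparation, per the labels' protocols. The authors deposited raw read counts per Ensembl gene ID, 1 column per library, not normalised. No source used here names the aligner, the counter or the strand setting. The submitters' processing notes list the mouse builds GRCm38 and mm10 while all IDs are human, which leaves the build of the counts unsettled; promoter coordinates are those of RefSeq's GRCh38.p14. Names came from a table that matched 20148 of 20263 IDs. A marker gene of another cell type is not reported here. The 45 genes, the lists and the tests were chosen with earlier results of these data known.

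From the deposited counts, low genes were removed with filterByExpr in edgeR 4.0.16 under R 4.3.3, leaving 13612 genes. Libraries were scaled by TMM (factors 0.868 to 1.10) and genes tested by edgeR's quasi-likelihood F test (robust, two-sided, no block), with Benjamini-Hochberg adjustment over all tested genes at 0.05. The standard error is the size of the log2 fold change over the root of F (median 0.31). CPM values were computed from TMM-scaled library totals. The fit was also run on counts simulated with 200 changed genes. These held no trend with length, so that run says nothing of the trend seen here. Replicates differed far beyond sampling noise (chi-square per degree of freedom 128 in RB-1 and 257 in DMSO) and were kept separate. Genes named with values in each library are the 3 called genes with the smallest p per role, the called genes against the majority direction, and 14 fixed genes; further genes were named to account for the whole set. Length and GC offsets used natural splines with 5 degrees of freedom. Alternatives also included RLE, upper-quartile and total scaling, other filters, DESeq2 1.42.0, limma-voom 3.58.1, a replicate block and leaving out each library.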

Additional observations from a re-analysis of the deposited data

How the results depend on the processing

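Among the 45 genes, no called gene changed sign under the 14 alternatives run for each gene. Of the 18 calls, CENPA and SPC25 were lost under an alternative that kept all libraries. Of the 27 genes that did not pass, HJURP, MIS18A, CENPN and ITGB3BP passed under such an alternative. The count of 5 rises became 8 with DESeq2, 3 with limma-voom and 2 at an adjusted p under 0.01. The cause was not tested. The count of falls was 13 or 14 under the alternatives that kept all libraries. Over all genes, 1702 were higher and 2149 lower, which became 501 and 1058 at an adjusted p under 0.01 and, when 1 library was left out, ran from 383 to 1934 and from 1091 to 2413. With library totals alone 2015 were higher, 1381 lower and the all-gene median at 0.21 on the log2 scale. With upper-quartile factors these were 2134, 1815 and 0.12, against a median of 0.01 with TMM. The falls of the kinetochore genes numbered 13 with each, and the median over all 45 kinetochore genes was 0.16 and 0.10. Of the partner genes, none was higher at an adjusted p under 0.01 (10 were lower) or with the length and GC correction (0 higher, 15 lower), and leaving out 1 library gave 0 to 1 higher and 9 to 15 lower. With the replicate number as a block, 5 of the 45 genes were higher and 13 lower (1721 and 2289 of all genes); HJURP passed (1.03, adjusted p = 0.0144) and SPC25 did not (0.80, 0.0710). Same-numbered libraries did not deviate together (correlation -0.096), so the numbers were not taken as pairs. Leaving out the mitochondrial DNA genes, chosen after the data were seen, gave 5 and 13. With 2 libraries per group, a gene that did not pass may still have changed.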
